A study of Mus musculus with 20 samples.

Results

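S100 proteins are small calcium-binding proteins, and S100A8 and S100A9 together form calprotectin, the most abundant of them in neutrophils. The transcripts described here are those of S100a8 and S100a9 and of S100a4, S100a6, S100a10, S100a11 and S100a13, measured in mouse whole blood before and after a hepatoma was placed under the skin. They are measured by 7 probes, 1 for each gene and all that carry these gene names, out of 41174 probes on the array, and all 7 are among the 20937 bright enough to enter the fit (7 of 27573 names on the array, of which 15178 entered). The genes were chosen with their differences from day 0 already known, so every comparison with day 0 is a description: counts there say how many genes passed the threshold of the fit, and p-values are given only between days after inoculation. Earlier results of these data were known at that choice, so those p-values are no independent test either.

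The samples came from 4 female C57Bl/6 mice, numbered 305, 310, 315 and 320. Each mouse was bled at day 0, before inoculation, and at days 10, 15, 20 and 25 after a subcutaneous injection of 10000000 Hepa1-6 cells, a mouse hepatoma line. The 20 samples of these 5 days were each hybridised with Cy5 beside a Cy3-labelled common reference, blood RNA of an untreated female C57Bl/6 mouse, so a log2(Cy5/Cy3) above 0 is a level above that reference. No animal was inoculated without tumour cells or followed untreated, so time, repeated bleeding and tumour growth cannot be told apart.

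Calprotectin is stored in the cytosol of neutrophils and, at lower levels, of monocytes, and is released when these cells are activated. Outside the cell it binds zinc and manganese, which starves microbes of them, and it signals through Toll-like receptor 4 and the receptor for advanced glycation end products. In tumour-bearing mice calprotectin is best known as a product of immature myeloid cells that suppress T cells. The other members act mostly inside cells: S100A4 binds non-muscle myosin, S100A6 (calcyclin) binds annexins and the calcyclin-binding protein, S100A10 and S100A11 pair with annexins at membranes, and S100A13 takes part in the release of proteins that lack a signal peptide.

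All 7 genes lie on chromosome 3, which holds 15 of the 19 S100 coding genes listed for the assembly GRCm38.p6. S100a13, S100a4, S100a6, S100a8 and S100a9 stand in an unbroken run of S100 genes, and S100a11 and S100a10 lie next to each other 54 coding genes beyond the last of that cluster. S100a8 and S100a9 are direct neighbours on opposite strands. Their promoters are shown because these 2 transcripts varied together across the arrays. RefSeq promoters (GRCm38.p6) were matched for 6 of the 7 members, S100a10 being the one without. The 250 bases before the start of each gene are given 5′ to 3′ on the gene's own strand, chr3:90668821-90669070 on the plus strand for S100a8 and chr3:90695722-90695971 on the minus strand for S100a9, and capitals mark motif matches.
S100a8: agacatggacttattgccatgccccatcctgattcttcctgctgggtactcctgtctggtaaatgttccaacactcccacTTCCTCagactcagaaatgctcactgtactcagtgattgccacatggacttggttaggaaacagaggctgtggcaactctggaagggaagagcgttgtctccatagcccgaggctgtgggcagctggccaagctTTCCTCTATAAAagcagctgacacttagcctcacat
S100a9: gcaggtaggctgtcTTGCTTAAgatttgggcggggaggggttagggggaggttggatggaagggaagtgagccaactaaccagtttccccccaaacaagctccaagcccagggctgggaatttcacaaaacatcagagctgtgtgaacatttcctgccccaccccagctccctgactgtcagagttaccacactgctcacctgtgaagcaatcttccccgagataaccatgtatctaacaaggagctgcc
Both strands were searched for 5 motifs. That of C/EBP factors was spelled TTGCNNAA and that of STAT factors TTCNNNGAA. The motif of ETS factors was spelled GAGGAA. The motif of AP-1 was spelled TGANTCA. The TATA box was spelled TATAAA. In S100a8 the capitals are 2 matches to the ETS motif on the opposite strand, 170 to 165 and 36 to 31 bases upstream of the start, and a TATA box 30 to 25 bases upstream, which adjoins the second of them without overlap. In S100a9 they are 1 match to the C/EBP motif, 236 to 229 bases upstream. Among 32851 mouse promoters of the same length, 23.3% hold the ETS motif, 12.4% the TATA box, 9.56% the C/EBP motif, 7.02% the STAT motif and 6.75% the AP-1 motif. A match is a run of letters, and binding was not measured.

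The arrays of a day shared 1 slide, so day and slide cannot be told apart anywhere below. The median net Cy5 signal was 50.1 to 69.6 at day 0 against at most 29.7 on the later days, and the median net Cy3 signal of the common reference was 79.6 to 110 at day 0 against 7.82 to 26.4, so the day 0 slide was the brighter in both channels. All 7 S100 probes were well above background on 20 of 20 arrays in both channels and none was saturated. The S100a9 probe was so bright that 19 of 20 Cy5 readings and 17 of 20 Cy3 readings came from the low-gain scan. The Cy3 readings that did not were those of mice 310 and 315 at day 0 and mouse 305 at day 15. For S100a8, 3 Cy5 readings were low-gain, those of mice 310, 315 and 320 at day 0. S100a4 and S100a10 had 1 such Cy5 reading each, also at day 0. The part of scan gain in the differences from day 0 was not tested. Of the blood cell lists, all 18 mature neutrophil genes on the array, all 9 T cell genes, all 7 B cell genes and all 8 platelet genes entered the fit. So did 8 of 9 erythroid genes and 8 of 10 granule genes of immature granulocytes. As 7 of 8 epidermis genes and 5 of 8 genes of liver and hepatoma entered too, entry alone does not mark blood cells.

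S100a8 and S100a9 were lower on all 4 days after inoculation than before it, with the widest difference at day 20 and the narrowest at day 25. S100a8 at day 0 had log2 ratios of 0.67, 1.52, 1.66 and 1.72 in mice 305, 310, 315 and 320. Its values in the same order of mice were -0.86, -0.51, -0.040 and -0.35 at day 10 and -0.078, -0.50, -0.097 and -0.12 at day 15. At day 20 they were -0.74, -0.13, -0.89 and -1.03, and at day 25 they were 0.52, 0.33, -0.040 and -0.012. Mouse 305 was the lowest at day 0 and the highest at day 25, and even so no value after inoculation reached the lowest of day 0. The means were 1.39 ± 0.49 (SD, n = 4) at day 0, -0.44 ± 0.34 at day 10, -0.20 ± 0.20 at day 15, -0.70 ± 0.40 at day 20 and 0.20 ± 0.27 at day 25. The differences from day 0 were -1.83, -1.59, -2.09 and -1.19 in the order of the days (each with SE 0.23), so S100a8 was left at 0.281, 0.332, 0.235 and 0.438 of its day 0 level.

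S100a9, the partner subunit that carries the long tail of calprotectin, had the wider differences. Its log2 ratios at day 0 were 0.59, 2.05, 1.69 and 1.72 in mice 305, 310, 315 and 320. They were -0.77, -0.59, -0.062 and -0.64 at day 10 and -0.66, -0.81, -0.79 and -0.076 at day 15. The lowest values of the series came at day 20, with -0.84, -0.60, -1.17 and -1.42, before 0.63, 0.12, -0.20 and -0.19 at day 25. Only mouse 305 at day 25, at 0.63, lay within the range of day 0, whose lowest value was the 0.59 of the same mouse. The means were 1.51 ± 0.63 (SD, n = 4), -0.51 ± 0.31, -0.59 ± 0.35, -1.01 ± 0.36 and 0.092 ± 0.39 in the order of the days. S100a9 was thus lower than at day 0 by differences of -2.03, -2.10, -2.52 and -1.42 (each with SE 0.27), or at 0.245, 0.233, 0.174 and 0.373 of its day 0 level.

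**Figure D1:**
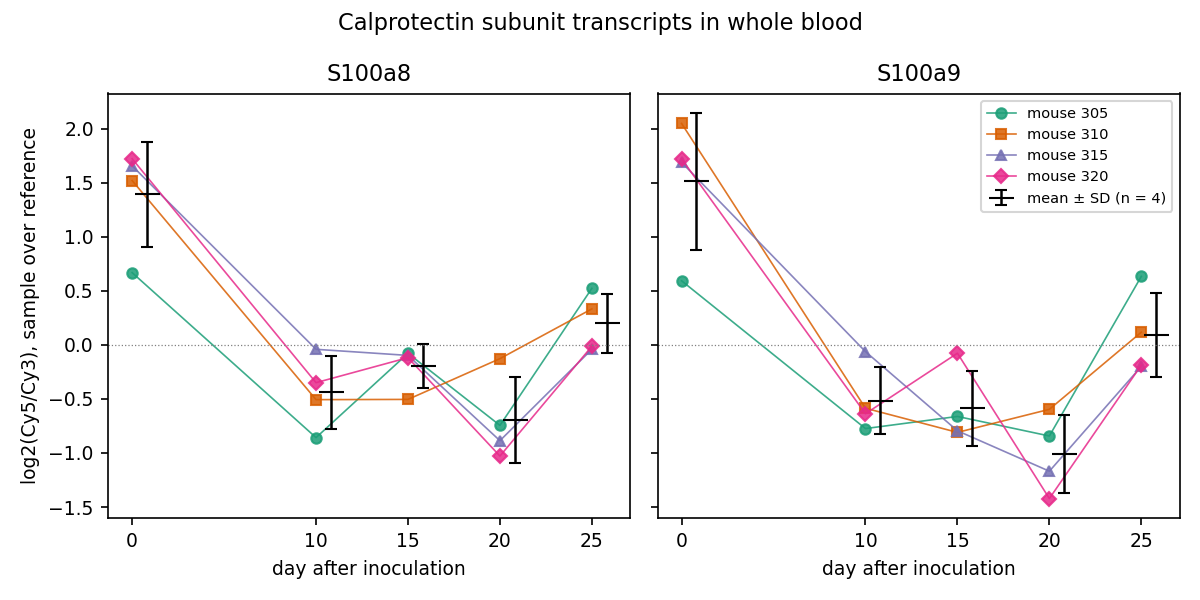
Log2(Cy5/Cy3) of S100a8 (left) and S100a9 (right) against the day after inoculation; coloured symbols joined by lines are the 4 mice, black bars are the mean ± SD (n = 4), and the dotted line marks the level of the common reference. The day 0 values of both genes lie above the reference in all 4 mice, and the day 20 values lie below it in all 4.

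The uncorrected brightness of the S100a9 spot shows the size of the signal behind these ratios. Its Cy5 signal was between 214675 and 298385 scanner units at day 0, between 28442 and 60250 at day 10, between 20606 and 27249 at day 15, between 17807 and 31871 at day 20 and between 59727 and 125809 at day 25. The Cy3 signal of the common reference at the same spot was between 13853 and 29421 at day 0 and between 18550 and 41136 on the other days. The day 0 arrays were therefore the highest in Cy5 at this spot. In Cy3 all 4 of them lay below every day 10 array (38451 to 41136), although their median spot was the brighter in both channels. A lower reference reading raises the ratio, and its part in the differences from day 0 was not tested. With the Cy5 channel alone, scaled by quantiles and with no reference in the value, S100a9 differed from day 0 by -2.35, -2.21, -2.38 and -1.04 and S100a8 by -1.93, -2.04, -2.68 and -1.61.

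The 2 calprotectin transcripts varied together. Across the 20 arrays their log2 ratios correlated with Pearson r = 0.970, and with r = 0.846 once the mean of each day was taken off, a description over arrays that share 4 mice and 5 slides. S100a9 minus S100a8 was 0.12 ± 0.28 (SD, n = 4) at day 0, -0.076 ± 0.16 at day 10, -0.39 ± 0.33 at day 15, -0.31 ± 0.16 at day 20 and -0.11 ± 0.15 at day 25. In all 4 mice S100a9 lay below S100a8 at day 20, and at day 15 it did so in 3 of 4, mouse 320 being the exception at 0.041.

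The other 5 genes differed less from day 0, and not in 1 direction. S100a6 and S100a11 were lower at days 10, 15 and 20 and back at their day 0 level at day 25. S100a4 and S100a10 overlapped with day 0 at days 10, 15 and 20. S100a13 was higher than at day 0 in all 4 mice at days 10, 15 and 20, and its mean was lower at day 25. At an adjusted p under 0.05 in limma, the members called lower were S100a8, S100a9 and S100a6 at day 10 and again at day 15, S100a8, S100a9 and S100a11 at day 20, and S100a8 and S100a9 at day 25. The share of all 20937 probes called lower was 7.11% at day 10, 3.83% at day 15, 1.98% at day 20 and 0.11% at day 25, and in either direction 11.2%, 5.86%, 2.9% and 0.148%. Since these contrasts chose the members, nothing is read from the counts. No member was called higher on any of the 4 days, where 4.07%, 2.03%, 0.917% and 0.0382% of all probes were, and at an unadjusted p under 0.05 limma counted 1 member higher on each day. The median difference of the 7 members was -0.43, -0.60, -0.59 and -0.026 on the 4 days, beside -0.023, -0.015, -0.023 and -0.0018 over all probes. The calls of S100a8 and S100a9 at days 10, 15 and 20 held whichever array was left out. At day 25 both were called in only 5 of the 20 fits that left out 1 array, those without mouse 305 at day 0 or day 10, mouse 310 or 315 at day 20, or mouse 310 at day 25. The 4 comparisons share the 4 day 0 arrays.

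**Figure D2:**
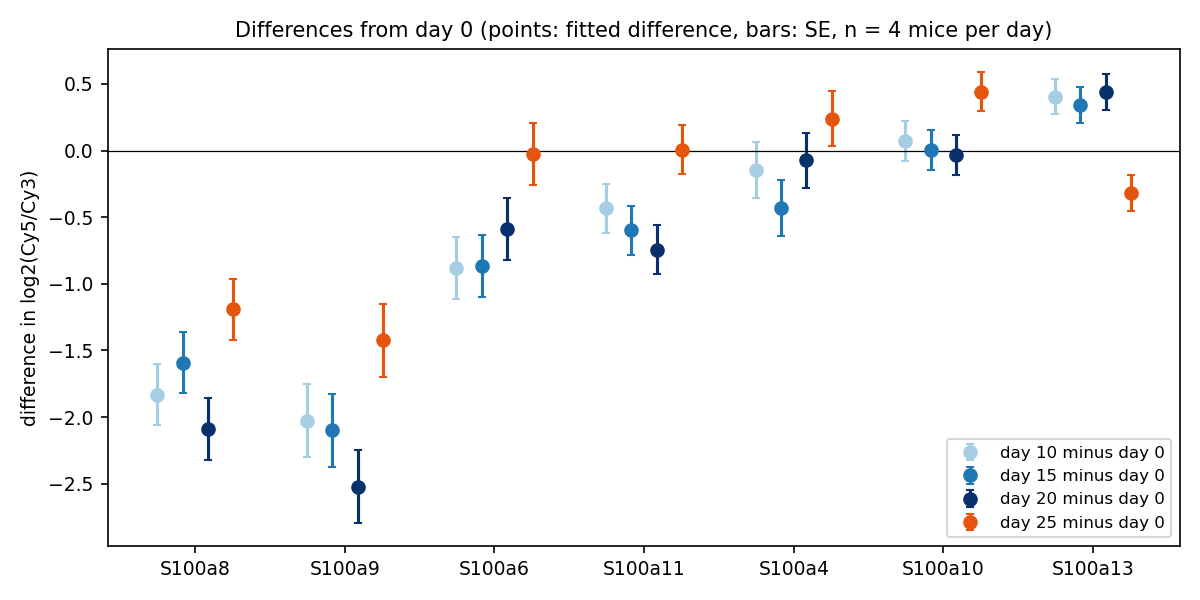
Differences in log2(Cy5/Cy3) from day 0 for the 7 S100 genes; points are the fitted differences at days 10, 15, 20 and 25, coloured by day, and bars are their SE (n = 4 mice a day). S100a8 and S100a9 sit lowest at every day, S100a6 and S100a11 return to about 0 at day 25, and S100a13 is above 0 at days 10, 15 and 20 and below it at day 25.

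S100a6 (calcyclin) had log2 ratios of 0.77, 0.93, 0.47 and 0.52 at day 0 in mice 305, 310, 315 and 320. They were -0.48, -0.42, 0.17 and -0.12 at day 10 and 0.34, -0.58, -0.43 and -0.11 at day 15, so no mouse of either day reached the range of day 0. At day 20 the values were 0.25, 0.61, -0.37 and -0.17 and at day 25 they were 0.45, 0.31, 1.21 and 0.61, and both days overlapped with day 0. The differences from day 0 were -0.88, -0.87, -0.59 and -0.026 (each with SE 0.23). The call at day 10 was lost when the day 0 array of mouse 305 or 310 or the day 10 array of mouse 305 was left out. At day 15 it was lost without the day 0 array of mouse 305 or 310 or without the day 15 array of mouse 310, 315 or 320.

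S100a11, which pairs with annexin A1 and takes part in membrane repair, was the tightest of the members at day 0, at 0.63, 0.77, 0.58 and 0.71. It stood at -0.042, 0.25, 0.41 and 0.34 at day 10 and at 0.14, -0.059, 0.065 and 0.15 at day 15, below day 0 in every mouse. At day 20 the mice spread widely, with 0.075, 0.60, -0.61 and -0.35, and at day 25 they were at 0.67, 0.33, 0.95 and 0.77. The differences from day 0 were -0.43, -0.60, -0.74 and 0.0067 (each with SE 0.18). The day 20 call, made on the day with the largest spread (SD 0.53), was lost without the day 0 array of mouse 305, 310 or 315, the day 15 array of mouse 315, or the day 20 array of mouse 315 or 320.

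S100a4, named metastasin for its role in cell motility, showed no such separation. Its values were 0.34, -0.13, -0.36 and -0.45 at day 0, -0.29, -0.38, -0.0046 and -0.51 at day 10 and -0.32, -0.22, -1.15 and -0.65 at day 15. At day 20 they were -0.17, 0.13, -0.31 and -0.54 and at day 25 0.36, 0.012, 0.29 and -0.32. Every day overlapped with day 0, mouse 315 at day 15 was the lowest array, and the differences were -0.14, -0.43, -0.074 and 0.24 (each with SE 0.21).

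S100a10, the annexin A2 partner also called p11, was below the reference on 19 of 20 arrays. Its values were -1.06, -0.57, -0.68 and -0.59 at day 0, -0.73, -0.82, -0.59 and -0.47 at day 10, -0.89, -0.55, -0.93 and -0.51 at day 15 and -0.66, -0.49, -1.11 and -0.78 at day 20. At day 25 they were -0.57, -0.41, 0.024 and -0.18, all above the highest of day 0, though mouse 305 by a narrow gap (-0.568 against -0.575). The differences from day 0 were 0.072, 0.0048, -0.035 and 0.44 (each with SE 0.15).

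S100a13 kept the same order of the mice at days 0, 10, 15 and 20. Its values were -0.31, -0.047, 0.27 and 0.039 at day 0, 0.18, 0.32, 0.57 and 0.50 at day 10, 0.17, 0.22, 0.62 and 0.29 at day 15 and 0.19, 0.36, 0.66 and 0.51 at day 20. On each of these 4 days mouse 305 was the lowest, followed by mice 310 and 320, and mouse 315 was the highest. At day 25 the values were -0.39, -0.041, -0.48 and -0.41, and mouse 315 was then the lowest. Each mouse was higher at days 10, 15 and 20 than at its own day 0, by mean differences of 0.40, 0.34 and 0.44, and the day 25 mean was lower by a difference of -0.32 (each with SE 0.13), while the ranges of the days overlapped. With mouse as a block in the fit, S100a13 at day 10 also passed the threshold against day 0. With the scanner software's log ratio, without background correction or with Cy5 alone, S100a13 passed as higher at days 10, 15 and 20. These are changes of call and, like the other comparisons with day 0, a description.

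**Figure D3:**
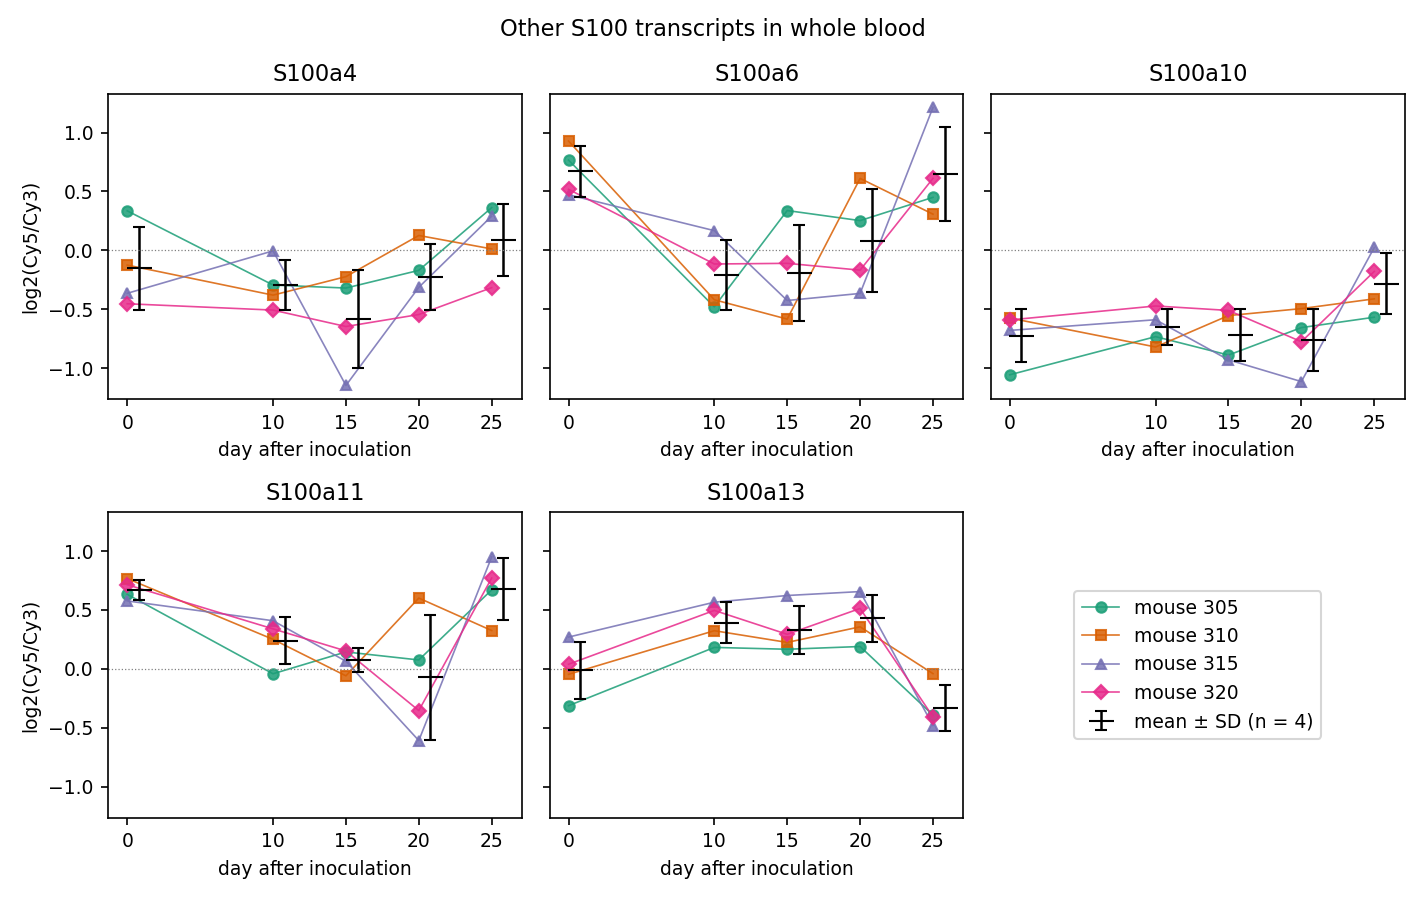
Log2(Cy5/Cy3) of S100a4, S100a6, S100a10, S100a11 and S100a13 against the day after inoculation, drawn for the 4 mice (coloured symbols and lines) with the mean ± SD (n = 4) in black; the dotted line is the level of the common reference. S100a6 and S100a11 dip at days 10 to 20, S100a10 lies below the reference on all arrays but the day 25 array of mouse 315, and S100a13 is at its lowest at day 25.

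Comparisons among the days after inoculation do not hold the day 0 means, although the day 0 arrays share in the estimate of the spread, and were tested with limma, with Benjamini-Hochberg adjustment over the 20937 probes. These comparisons too are of members chosen with earlier results of these data known. Between days 10, 15 and 20 no member passed. The members at an unadjusted p under 0.05 in these comparisons were 0 for day 15 against day 10, 0 for day 20 against day 10 and 1 for day 20 against day 15, which was S100a8, lower by a difference of -0.50. The share of all probes called in these comparisons was 0.00955%, 0.0287% and 0.043%.

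Day 25 stood apart from the 3 days before it. Against day 10, S100a8 rose by 0.64 (SE 0.23, adjusted p = 0.0411), S100a6 rose by 0.86 (SE 0.23, adjusted p = 0.0101) and S100a13 fell by 0.72 (SE 0.13, adjusted p = 0.000826). Against day 20, S100a8 rose by 0.90 (adjusted p = 0.0118), S100a9 by 1.10 (adjusted p = 0.0106), S100a10 by 0.48 (adjusted p = 0.029) and S100a11 by 0.75 (adjusted p = 0.01), and S100a13 fell by 0.76 (adjusted p = 0.00249). Against day 15, S100a4 rose by 0.67 (adjusted p = 0.0306), S100a6 by 0.84 (adjusted p = 0.0177), S100a10 by 0.44 (adjusted p = 0.0462) and S100a11 by 0.60 (adjusted p = 0.0287), and S100a13 fell by 0.66 (adjusted p = 0.00241). These are 3, 5 and 5 of the 7 members against days 10, 20 and 15, where 31.4%, 23.2% and 19.5% of all probes were called. Of all probes 17.7%, 11% and 11.2% were called higher and 13.8%, 12.2% and 8.26% lower in these comparisons. The median difference of the members was 0.44, 0.56 and 0.60 against days 10, 20 and 15, beside 0.032, 0.035 and 0.018 over all probes. The comparisons share the 4 day 25 arrays.

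S100a13 fell against each of the 3 days and did so whichever of the 20 arrays was left out, as did the rise of S100a6 from day 10 and the rises of S100a8, S100a9 and S100a11 from day 20. The rise of S100a8 from day 10 rested on single arrays, since it missed the threshold without the day 10 array of mouse 305, 310 or 320 or the day 25 array of mouse 305 or 310 (adjusted p up to 0.127). Against day 15, S100a6 lost its call without the day 15 array of mouse 310 or 315 or the day 25 array of mouse 315, S100a4 without the day 15 array of mouse 315 or 320 or the day 25 array of mouse 305 or 315, and S100a11 without any 1 of 6 arrays of these 2 days, while S100a10 kept its call in 10 of 20 fits. S100a10 against day 20 lost its call without the day 20 or the day 25 array of mouse 315 or 320. S100a9 did not pass against day 10 (difference 0.61, adjusted p = 0.0986) or day 15 (0.68, adjusted p = 0.0894), nor S100a8 against day 15 (0.40, adjusted p = 0.227).

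By mean level the days ran from day 0 to days 25, 15, 10 and 20 for S100a8 and from day 0 to days 25, 10, 15 and 20 for S100a9. Below day 0 no neighbours in that order passed the threshold, although all 4 S100a8 values of day 25 lay above those of day 15, the closest being -0.040 and -0.078. For S100a8 the adjusted p was 0.227 between days 25 and 15, 0.735 between days 15 and 10 and 0.643 between days 10 and 20. For S100a9 it was 0.0986 between days 25 and 10, 0.95 between days 10 and 15 and 0.433 between days 15 and 20.

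Neutrophil transcripts were lower on the same days. Of all probes 7.11%, 3.83%, 1.98% and 0.11% were called lower than day 0 at days 10, 15, 20 and 25. Of 18 mature neutrophil genes, 14 were lower at day 10 than at day 0, 14 at day 15, 15 at day 20 and 1 at day 25 (16 at an unadjusted p under 0.05), with median differences of -0.84, -0.68, -0.89 and -0.51. The day 25 count was 8 without mouse 310 of that day, 5, 0, 3 and 0 without mouse 305, 310, 315 or 320 of day 0, 2 without mouse 310 of day 20 and 0 without mouse 320 of day 25. The mean log2 ratio of that list ran from 0.51 to 0.94 at day 0, from -0.28 to 0.093 at day 10, from -0.15 to -0.0041 at day 15, from -0.46 to 0.20 at day 20 and from 0.0030 to 0.48 at day 25. In bulk blood, fewer neutrophils and less calprotectin RNA in each of them cannot be told apart, and the part of neutrophil number in the S100a8 and S100a9 differences was not tested. S100a8 minus the list mean was 0.68 ± 0.38 (SD, n = 4) at day 0, -0.37 ± 0.20 at day 10, -0.15 ± 0.14 at day 15, -0.52 ± 0.15 at day 20 and 0.050 ± 0.12 at day 25. S100a9 minus the list mean was 0.80 ± 0.51, -0.44 ± 0.19, -0.53 ± 0.34, -0.84 ± 0.085 and -0.060 ± 0.17 on the same days, so both genes stood above the list at day 0 and below it at days 10, 15 and 20. Both genes were chosen with their differences from day 0 known, so this is a description too. The 18 list genes together had a net Cy5 signal of 61264 to 94931 at day 0, beside 214675 to 298385 (uncorrected) for S100a9 alone. The part of brightness in these differences was not tested.

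Of 8 measured granule genes that mark immature granulocytes, 1 was lower at day 10 and 1 at day 15, and none passed at days 20 and 25, where 2 and 1 were lower and 2 and 1 higher at an unadjusted p under 0.05 in limma. Elane and Mpo of that list were too dim to enter the fit. Of 12 monocyte genes 1 was lower at day 10 and 2 at day 15, and of 9 T cell genes 1 and 3. Of all probes 7.11% and 3.83% were called lower on these 2 days, and 4.07% higher at day 10. Of 8 erythroid genes 1 was higher at day 10 (6 at an unadjusted p under 0.05 in limma, median difference 0.57). At day 25 none of the erythroid genes passed, and 8 were lower at an unadjusted p under 0.05 (median difference -0.69). Of 8 platelet genes and of 5 genes of liver and hepatoma 1 each was higher at day 10. None of 7 B cell genes and none of 7 cytotoxic and NK cell genes passed at day 10 in limma, where 0 of either list had an unadjusted p under 0.05.

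The 5 other genes whose log2 ratios were most like the mean of S100a8 and S100a9 over the 20 arrays were Slpi (r = 0.960), Cebpd (r = 0.940), Il1b (r = 0.936), Adam8 (r = 0.931) and Pygl (r = 0.929). Slpi encodes a secreted inhibitor of neutrophil proteases, Il1b the cytokine interleukin-1 beta, Adam8 a leukocyte metalloprotease and Pygl a glycogen phosphorylase, and Slpi, Il1b and Adam8 stand in the neutrophil list. Within days r was 0.878 for Slpi, 0.858 for Il1b, 0.821 for Cebpd, 0.732 for Pygl and 0.545 for Adam8. Of the members, S100a11 (r = 0.705) and S100a6 (r = 0.615) were the nearest to the calprotectin mean, and S100a13 ran the other way across days (r = -0.426) but not within them (r = 0.342). S100a6 and S100a11 were alike both across all arrays (r = 0.825) and within days (r = 0.806).

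Of 7 measured genes known to regulate calprotectin transcription or neutrophil output, 4 were lower than at day 0 at each of days 10, 15 and 20, and these were Cebpd, Cebpb, Csf3r and Stat3. On these days 7.11%, 3.83% and 1.98% of all probes were called lower. Cebpa, Gfi1 and Irf8 did not pass on any day. At day 25 none passed, and 4 were lower at an unadjusted p under 0.05 in limma. Cebpd, a C/EBP transcription factor of myeloid cells, differed from day 0 by -1.45 at day 10, -1.15 at day 15 and -1.38 at day 20, each with SE 0.22. Csf3r, the receptor for granulocyte colony-stimulating factor, which also stands in the neutrophil list, differed by -0.71, -0.67 and -0.81 on these days (SE 0.16). These genes are named because they passed against day 0, so their differences are a description. Cebpb, another C/EBP factor, differed by -0.64, -1.01 and -0.72 (SE 0.18) and Stat3, which acts below the receptor, by -0.77, -0.54 and -0.53 (SE 0.10). A second probe of Cebpb differed by only -0.070, -0.15 and -0.11, and a second probe of Stat3 by -0.032, 0.0056 and -0.019, so the probes of both genes disagree. Without mouse 310 at day 0 or mouse 315 or 320 at day 20, the regulators called at day 20 ranged down to 1. Cebpb lost its call at days 10 and 20 in 5 of 20 fits that left out 1 array, among them those without the day 0 array of mouse 305, 310 or 315. Csf3r lost its call without mouse 310 at day 0 (days 15 and 20), mouse 310 at day 15, or mouse 315 or 320 at day 20, and Stat3 at day 20 without mouse 315 of that day, while Cebpd kept its 3 calls in every such fit. Spi1 was too dim to enter the fit.

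Of 9 measured receptor and signalling genes, 2 were lower at day 10, Myd88, the adaptor of Toll-like receptors (by a difference of -0.28), and Cd33, a lectin of myeloid cells (-0.20). The share of all probes called lower was 7.11% at day 10 and 3.83% at day 15. Myd88 was also lower at day 15 (-0.33), and none passed at days 20 and 25, where 4 and 3 genes were lower at an unadjusted p under 0.05 in limma. Ager, the gene of the receptor for advanced glycation end products, was too dim to enter the fit. Myd88, Cd33 and, below, Cacybp, Myh9 and S100pbp were picked for naming with their values in view.

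Among 9 binding partners of S100 proteins 2 were lower at each of days 10, 15 and 20, where 7.11%, 3.83% and 1.98% of all probes were. They were not the same 2 genes throughout. Beside Anxa1 the second was Cacybp, the calcyclin-binding protein, at day 10 (difference -0.40). At days 15 and 20 it was Myh9, a non-muscle myosin (-0.77 and -0.90). Anxa1, the annexin that S100A11 binds, passed on all 3 days, with differences of -0.96, -1.15 and -1.06 (SE 0.27). Its day 10 call was lost without mouse 305 or 310 at day 0 or mouse 305 or 320 at day 10, and its day 15 call without mouse 320 at day 15. Its day 20 call was lost in 10 of 20 fits that left out 1 array, including each of the 4 day 0 arrays and each of the 4 day 15 arrays. The other S100 family genes gave 1 call against day 0 among 6 measured, S100pbp at day 10 (-0.24), and S100a5, S100a7a and S100g were too dim to enter the fit.

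Markers of other cells moved with some members on some arrays. All 8 erythroid genes fell from each of days 10, 15 and 20 to day 25, with median differences of -1.16, -0.94 and -0.90, as S100a13 did. The mean log2 ratio of the erythroid list ran from -0.13 to 0.79 at day 0, from 0.63 to 0.86 at day 10, from 0.33 to 0.61 at day 15, from 0.25 to 0.71 at day 20 and from -0.64 to -0.13 at day 25. Its part in the S100a13 result was not tested. Of all probes 17.7%, 11.2% and 11% were called higher at day 25 than at days 10, 15 and 20. Called lower were 13.8%, 8.26% and 12.2%. Of 9 T cell genes 4 rose to day 25 from day 10, 4 from day 15 and 1 from day 20. Of 7 B cell genes 3, 3 and 2 rose and 1 fell from day 20, and of 12 monocyte genes 3, 1 and 3 rose and 1 fell from day 10. Of 8 platelet genes 3 fell from day 10, 2 fell and 1 rose from day 15, and 3 rose from day 20. Of 5 genes of liver and hepatoma 1 fell from day 20. None of 7 cytotoxic and NK cell genes passed in limma against these days, where 0, 1 and 0 had an unadjusted p under 0.05. Mature neutrophil genes that rose to day 25 numbered 3, 2 and 4 of 18 from days 10, 15 and 20, with median differences of 0.26, 0.16 and 0.35. The part of all these cells in the rises of S100a8, S100a9, S100a4, S100a6, S100a10 and S100a11 was not tested. The mean of 7 epidermis genes was highest, at 1.45, on the day 25 array of mouse 315, which also had the highest S100a6, S100a10 and S100a11 values of day 25. That list ran from 0.051 to 0.93 at day 0, from 0.16 to 1.08 at day 10, from 0.19 to 0.49 at day 15, from 0.12 to 0.92 at day 20 and from 0.012 to 1.45 at day 25, and its part was not tested. Without that array S100a6 rose from day 10 to day 25 all the same, and S100a6, S100a10 and S100a11 no longer passed against day 15. S100a11 lost that call also without the day 25 array of mouse 305 or 320, where the epidermis mean was 0.012 and 0.68. S100a10 kept it in 10 of 20 fits. Without the day 25 array of mouse 315 the calls over all probes against day 15 went from 4076 to 2227. The part of the epidermis genes in these losses was not tested.

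The normalization bore on the size of every difference and on the direction of some. When each array was centred on its median instead, the median over all probes shifted by -0.39, -0.29, -0.22 and -0.0056 against day 0, and the median of the 2013 probes as bright as the S100 probes by -1.54, -1.46, -0.93 and -0.18. With loess those 2013 probes were at -0.088, -0.11, -0.046 and 0.0051. With the scanner software's own log ratio the median of all probes shifted by -0.18, -0.20, -0.12 and -0.053. S100a8 and S100a9 under median centring differed from day 0 by -3.40 and -3.67 at day 10, -3.09 and -3.69 at day 15, -3.13 and -3.55 at day 20 and -1.48 and -1.87 at day 25, below that bright-probe median on each day. S100a10 at -1.51 lay close to it at day 10, and S100a13 at -1.01 was below 0 but above it. The direction of S100a13 at days 10, 15 and 20, higher with loess, thus turned with median centring, and its fall from days 10 and 15 to day 25 turned to differences of 0.55 and 0.54, beside bright-probe medians of 1.41 and 1.34. With median centring S100a8 also missed the threshold against day 0 at days 15 and 20, and no member passed for day 25 against day 15 or day 20. With the arrays scaled to a common spread, S100a9 missed it at day 20, and the later-day calls against day 25 were 0 for day 10, 3 for day 15 and 0 for day 20.

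**Figure D4:**
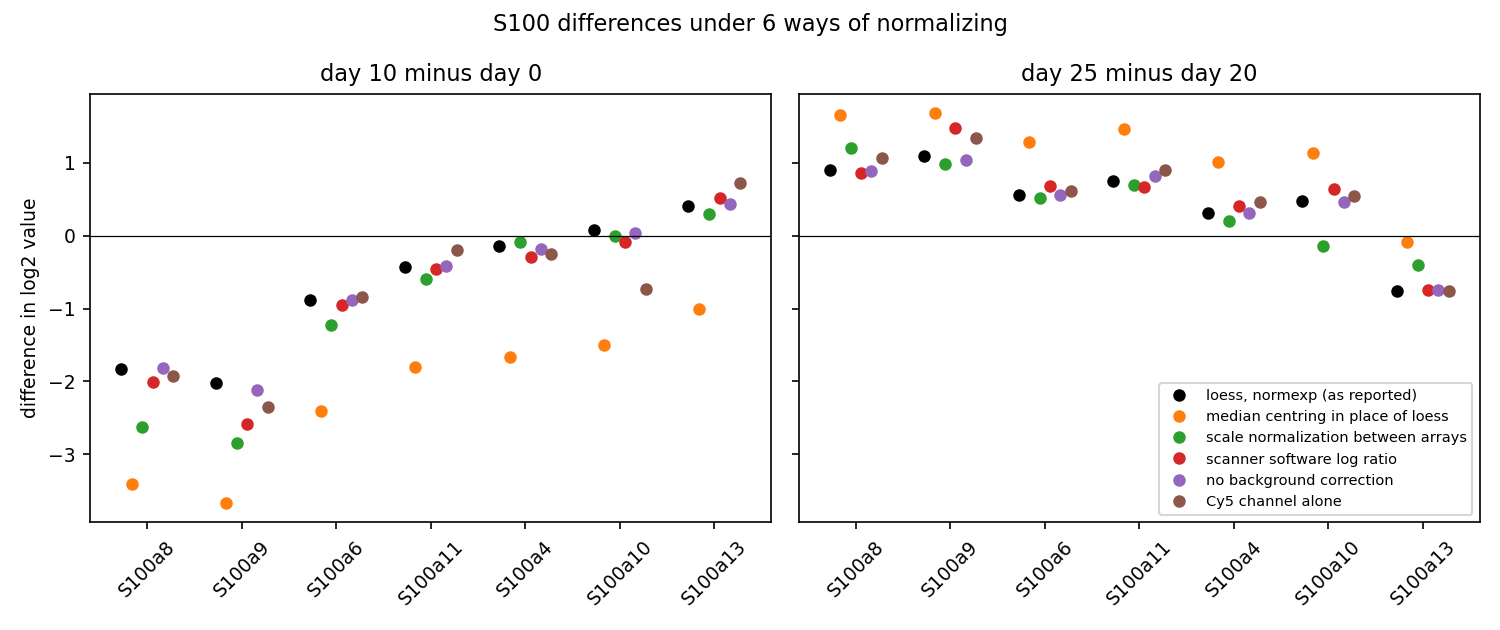
Differences in log2 value of the 7 S100 genes for day 10 minus day 0 (left) and day 25 minus day 20 (right) under 6 ways of normalizing, 1 coloured point for each. S100a8 and S100a9 are below 0 at day 10 and above 0 at day 25 under all 6, whereas S100a10 and S100a13 lie on both sides of 0 at day 10.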

How the data were processed

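Whole-blood RNA of 4 mice at 5 days was measured on 20 arrays with 2 colours. The deposited scanner files give, per the file headers, mean and median background intensity for each of 45018 spots and each dye (Agilent Feature Extraction, version 9.1.3.1 per the submitters' processing notes). They also give a deposited log10 ratio of red over green, which per the file headers rests on the software's own background and dye correction and served as an alternative after turning it to log2. No source used here names a genome build for the array.

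Background was corrected with normexp (offset 50), each array was normalized by loess with the 1639 control spots at weight 0, spots marked non-uniform were dropped, and spots of a probe were averaged (limma 3.58.1, R 4.3.3, statmod 1.5.0, version 1.17.8 of data.table). Probes entered the fit when Cy5 was well above background on 4 or more of 20 arrays and 3 or more arrays of each day had a value. Day means were fitted in limma (lmFit, eBayes) without a block, two-sided, with Benjamini-Hochberg adjustment over 20937 probes and a threshold of 0.05. For gene lists the brightest probe stood for a gene (15178 genes). On simulated data this recovered 96% of changes of 1 and 99% of changes of 2 (log2) for day 10 against day 0, of 100 each, with 15 false calls. Those values were drawn independently for each probe, with no slide, array or mouse effect. They therefore do not give the power or error rate on the real arrays.

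The members, the lists and the alternatives were chosen with earlier results of these data known. The genes named by rule are all members, list genes called against day 0 on at least 3 later days (at most 4 a list), and the 5 named genes most like the calprotectin mean. Not every list result is reported here. Of 41174 probes 23374 (56.8%) were named by accession, 6733 (16.4%) by symbol and 2919 (7.09%) by synonym through RefSeq's table for GRCm38.p6, and 8148 (19.8%) kept the file's name.

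The mouse numbers pair the samples, as each mouse was bled on all 5 days per the labels. After the day means were taken off, the mean correlation was 0.0856 over 40 pairs of arrays of 1 mouse (range -0.425 to 0.521, 21 above 0.1) and at -0.029 over 120 other pairs. Ratios with a 1-way dye layout cancel a constant dye effect between days only, and precision is limited by how many arrays there are.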

Additional observations from a re-analysis of the deposited data

Results flagged for a closer look

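In 1 of 35 groups of 4 mice (7 genes on 5 days) a single array stood far from the others. S100a8 at day 15 in mouse 310 had a log2 ratio of -0.50, while the other 3 mice lay between -0.12 and -0.078. The gap was 0.907 of the whole range of the group, above the limit of 0.829 for 4 samples, and chance marks about 1 in 20 such groups. The S100a9 value of the same array, -0.81, was the lowest of day 15, next to -0.79 in mouse 315.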

How the results depend on the processing

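S100a8 and S100a9 stayed below day 0 on all 4 days under every setting tried. With median centring in place of loess, 6, 1, 1 and 0 members passed against day 0 at days 10, 15, 20 and 25, and 6, 0 and 0 for day 25 against days 10, 15 and 20; S100a10 at day 10 turned to -1.51, S100a13 turned to 0.55 and 0.54 for day 25 against days 10 and 15, and lower neutrophil genes numbered 0 at days 15, 20 and 25 and lower regulators 0 at days 15 and 20. With arrays scaled to 1 spread, 1 member passed at day 20 and 0 at day 25, and 0, 3 and 0 for day 25 against days 10, 15 and 20; S100a10 for day 25 against day 20 turned to -0.14, 2 regulators were lower at day 20 and 11 neutrophil genes at day 25. Without background correction 6 members passed for day 25 against day 10, and 14 neutrophil genes and 2 regulators were lower at day 25. Without the filter on dim probes 0 members passed at day 25 against day 0 and 3 against day 15. With Cy5 alone 5 members passed at day 10 and 5 at day 20, S100a10 at day 10 turned to -0.73, and 9 neutrophil genes and 1 regulator were lower at day 25, against 8 and 1 with the scanner's log ratio. Mouse as a replicate block (correlation 0.0296) moved the calls of all probes at day 25 against day 0 from 31 to 63 and for day 20 against day 15 from 9 to 18. In the blocked fit S100a8 rose from day 10 to day 25 with an adjusted p of 0.0388. That S100a8 call was lost with arrays scaled to 1 spread, with the scanner's log ratio, without the filter on dim probes and with Cy5 alone. The S100a6 call for the same days was lost with arrays scaled to 1 spread and with Cy5 alone.

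Leaving out 1 array in turn gave 2 to 4 members at days 10, 15 and 20 each and 0 to 2 at day 25 against day 0. For day 25 it gave 2 to 5 against day 10 (5 without mouse 305 at day 0 or mouse 315 at day 20), 1 to 6 against day 15 (1 without mouse 315 at day 15 or day 25) and 4 to 6 against day 20. Lower neutrophil genes numbered 12 to 16, 11 to 15, 10 to 16 and 0 to 8 on the 4 days, and lower regulators 3 to 5, 3 to 5, 1 to 4 and 0 to 1. With all 20 arrays the calls over all probes at day 10 ranged from 1687 without the dim filter to 9222 with median centring (2341 as reported), at day 15 from 3 with median centring to 9600 with Cy5 alone (1226), at day 20 from 3 with median centring to 5008 with Cy5 alone (607) and at day 25 from 0 with median centring to 2935 without background correction (31). Leaving out 1 array gave 845 (mouse 305, day 0) to 3334 (mouse 310, day 10) at day 10, 647 (mouse 305, day 0) to 1717 (mouse 320, day 0) at day 15, 104 (mouse 315, day 20) to 3341 (mouse 305, day 20) at day 20 and 1 (mouse 310 or 320, day 0) to 2282 (mouse 310, day 25) at day 25. With median centring 9205 of the 9222 at day 10 were lower, beside 1489 of 2341 with loess. With arrays scaled to 1 spread 3141 of 6065 were lower at day 15 (802 of 1226 as reported), 292 of 563 at day 25 (23 of 31), 3730 of 7032 for day 25 against day 15 (1729 of 4076) and 93 of 134 for day 25 against day 20 (2556 of 4867). The cause of these changes was not tested. Slide as a block could not be fitted, since each day lies on 1 slide. The settings for the neutrophil and regulator lists were added after the data were seen.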

Other observations

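S100a14, an S100 gene of epithelia that stood in the list of other family members and is named here after its values were seen, was raised on single arrays rather than on a day. Its log2 ratio was 1.19 and 1.38 in mice 315 and 320 at day 10, 1.37 and 0.93 in mice 310 and 320 at day 20, and 1.90 and 1.72 in mice 315 and 320 at day 25. On the other 14 arrays it lay between 0.034 and 0.75. The mean of the epidermis genes was 1.08, 0.94, 0.92, 0.43, 1.45 and 0.68 on those 6 arrays in the same order. At day 0 it was 0.93 on the array of mouse 310, where S100a14 was 0.75.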
